A study of Mus musculus with 24 samples.

Results

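The interferon regulatory factor (IRF) genes were followed in mouse CD4+ T cells before and after stimulation through the T cell receptor. The members were 8 genes, Irf1, Irf2, Irf3, Irf4, Irf5, Irf7, Irf8 and Irf9, taken by symbol from 54446 gene identifiers in the count table. All 8 had counts in every library and all 8 passed the filter on low counts. RNA came from splenic CD4+ T cells of 6 mice of the C57BL6 strain, of which 3 carry the label wild type (WT, numbered 1, 3 and 4). The other 3 (numbered 1, 2 and 4) carry the label Aim2-/-, a germline deficiency of Aim2, a sensor of cytosolic DNA. Per the labels, the cultured cells of each mouse gave a control library at 0 h and libraries at 3, 6 and 24 h of anti-CD3/CD28 stimulation, which mimics antigen and costimulation. The mice were age- and sex-matched per the study's methods, and their ages and sexes were not given in the sources used here. The 24 libraries formed 8 groups of 3, and every group consisted of total splenic CD4+ cells taken by negative selection, so naive, memory and regulatory T cells were measured together. In such bulk RNA, fewer cells of a type and less RNA per cell cannot be told apart.

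IRF proteins bind GAAA-rich elements in DNA through a shared amino-terminal domain. IRF3, IRF5 and IRF7 wait in the cytosol and are switched on by kinases downstream of nucleic acid sensors and Toll-like receptors, after which they drive interferon genes. IRF9 is the DNA-binding part of ISGF3, the complex that carries the type I interferon signal to interferon-stimulated genes, while IRF1 is an interferon-gamma-induced activator and IRF2 its repressing counterpart at many sites. IRF4 and IRF8 are the lymphoid and myeloid members. They bind DNA weakly alone and pair with BATF and JUN or with PU.1, and in T cells IRF4 is known as an antigen-receptor-induced factor needed for expansion and effector differentiation.

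Library totals lay between 19715161 and 21627018 counts, and 15325 genes were tested. Levels are given as CPM (counts-per-million, a gene's share of its library) on library sizes scaled by trimmed means (TMM), and changes as log2 fold changes with standard errors (SE) from edgeR's quasi-likelihood fit. A gene is described as called where its Benjamini-Hochberg adjusted p over all genes tested was under 0.05. Markers of CD4 T cells summed to between 2034 and 3322 CPM in the 24 libraries. Markers of B cells summed to 5.80 to 13.9 CPM in WT and 8.16 to 54.1 CPM in Aim2-/- libraries, and 8 myeloid markers to 15.3 to 76.4 CPM and 38.0 to 390.3 CPM. The mouse labelled WT 1 went against its label for Aim2, with 21.5 CPM at 0 h against 75.0 and 67.5 CPM in WT mice 3 and 4 and 15.7, 20.1 and 19.0 CPM in the Aim2-/- mice. It was below WT mice 3 and 4 at 3, 6 and 24 h too, and Aim2-/- libraries kept Aim2 counts at every time, so the check rests on a difference in level. With all mice Aim2 itself was not called between genotypes at any time (edgeR, adjusted p = 0.079, 0.22, 0.089 and 0.078 at 0, 3, 6 and 24 h). Its libraries overlapped at 24 h. Results between genotypes are therefore given with and without this mouse.

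Stimulation moved most of the family, in 4 patterns. Irf4 and Irf8 rose early and stayed high at 24 h. Irf1 rose to a peak at 3 h and was back near its 0 h level at 24 h. Irf7 rose at 3 and 6 h and was below its 0 h level at 24 h, where Irf2, Irf5 and Irf9 were also lower. Irf3 moved least. Against 0 h, 6 of the 8 members were called in WT cells at 3 h, beside 32.6% of all genes tested, 5 at 6 h, beside 51.1%, and 6 at 24 h, beside 71.4%. In Aim2-/- cells 4 were called at 3 h, beside 30.7% of all genes, 5 at 6 h, beside 51.2%, and 6 at 24 h, beside 70.3%. At 6 and 24 h the share of members called was thus close to that of all genes, since most genes moved. The comparisons with 0 h within a genotype share their 0 h libraries. The fit had no term for mouse, though each mouse gave a library at every time. Calls with mouse as a block are given further below.

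**Figure D1:**
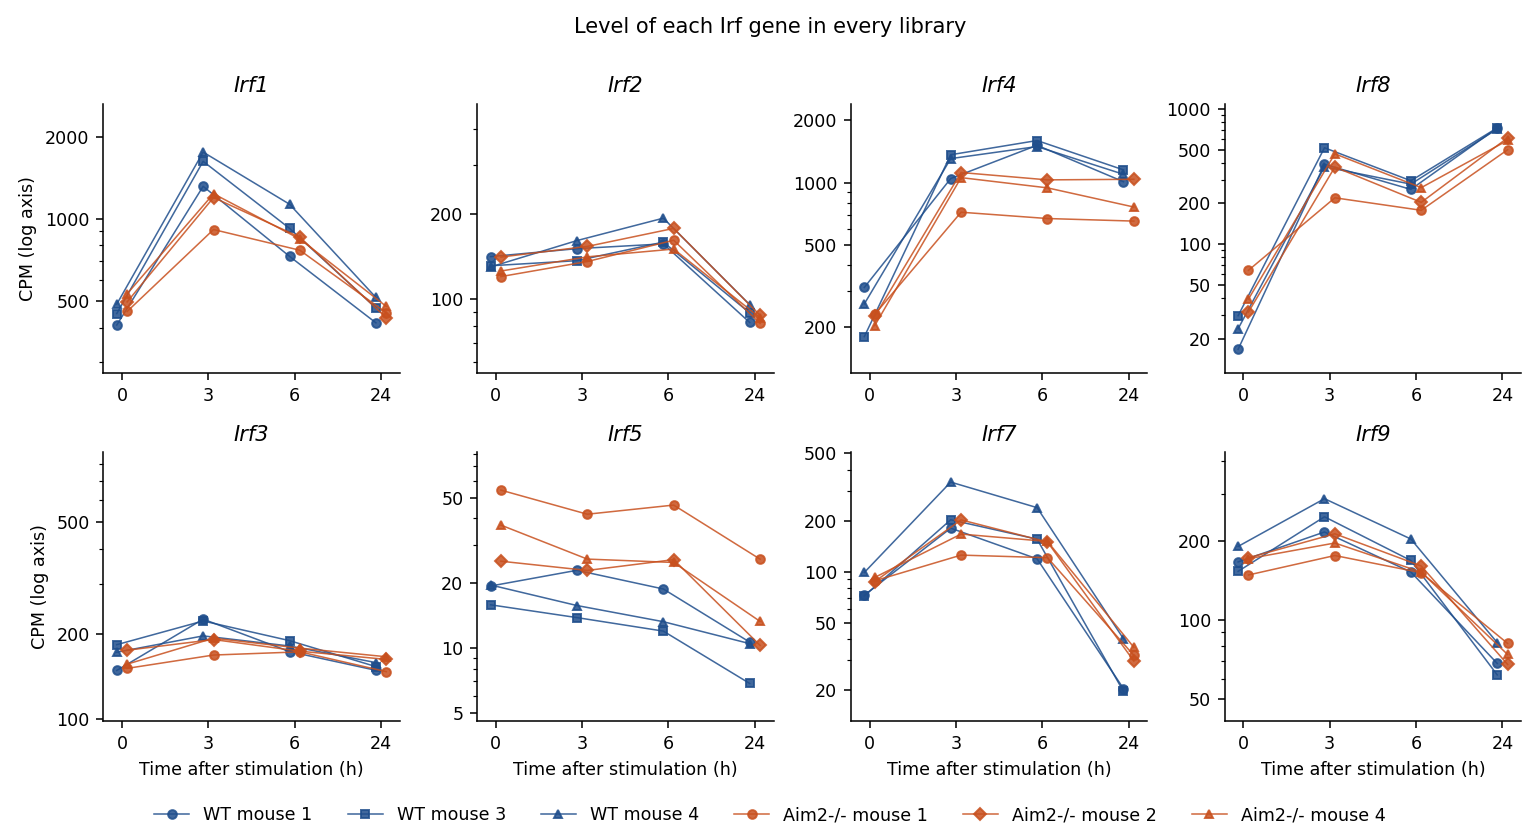
CPM (log axis) of the 8 Irf genes at 0, 3, 6 and 24 h, with 1 line for each of the 6 mice and 1 point for each library. Irf8 sits between 16.7 and 64.0 CPM at 0 h and between 499.7 and 726 CPM at 24 h, while Irf1 is highest at 3 h in 6 of 6 mice and Irf7 and Irf9 are lowest at 24 h in 6 of 6 mice.

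Irf8 (ENSMUSG00000041515) showed the largest fold of the family. In WT mice 1, 3 and 4 it lay at 16.7, 29.5 and 23.6 CPM at 0 h. It lay at 389.6, 517 and 374 CPM at 3 h, at 254, 295 and 278 CPM at 6 h and at 724, 726 and 712 CPM at 24 h. The 3 WT libraries of 24 h were close to one another, and no stimulated library overlapped those of 0 h. In Aim2-/- mice 1, 2 and 4 the levels were 64.0, 31.5 and 39.2 CPM at 0 h, 220.3, 372 and 466 CPM at 3 h, 178, 204 and 262 CPM at 6 h and 499.7, 612 and 587 CPM at 24 h. Mouse Aim2-/- 1 was the highest of the 6 mice before stimulation and the lowest after it. The log2 fold change in WT cells was 4.20 ± 0.28 (SE) at 3 h, 3.57 ± 0.28 at 6 h and 4.95 ± 0.29 at 24 h, which is 18.3-fold, 11.8-fold and 31.0-fold. For Aim2-/- cells it was 2.97 ± 0.27, 2.26 ± 0.26 and 3.66 ± 0.27, or 7.85-fold, 4.78-fold and 12.6-fold (edgeR, adjusted p from 4.0e-12 to 4.4e-07 over the 6 comparisons). In 6 of 6 mice the time of the highest level was 24 h and that of the lowest 0 h, with a smaller value at 6 h than at 3 h in between.

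Irf8 lies on chromosome 8 (GRCm38, 120736358 to 120756694, plus strand). Its span overlaps that of Gm20388, a gene model on the same strand whose exons it does not share and which had 0 CPM in every library. RefSeq lists 2 starts for Irf8. The 250 bases before its outer start are shown because they hold a pair of GAS elements, the sites that STAT dimers recognise (TTCNNNGAA, in capitals), at 171 to 163 and 153 to 145 bases before the start. The sequence is from GRCm38.p6, chr8:120736108-120736357, plus strand.
Irf8: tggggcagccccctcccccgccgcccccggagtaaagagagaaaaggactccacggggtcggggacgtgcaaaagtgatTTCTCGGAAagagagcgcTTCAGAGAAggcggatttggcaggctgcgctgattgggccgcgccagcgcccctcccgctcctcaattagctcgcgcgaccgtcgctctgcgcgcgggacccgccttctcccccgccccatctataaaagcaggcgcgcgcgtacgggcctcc

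Irf4 (ENSMUSG00000021356; chromosome 13, 30749226 to 30766976, plus strand) rose in all 6 mice and stayed up. WT mice 1, 3 and 4 held 312, 181 and 260.0 CPM at 0 h, 1048, 1365 and 1308 CPM at 3 h, 1516, 1599 and 1496 CPM at 6 h and 1012, 1154 and 1098 CPM at 24 h. Aim2-/- mice 1, 2 and 4 held 231, 226 and 204 CPM at 0 h, 721, 1120.3 and 1059 CPM at 3 h, 672, 1032 and 945 CPM at 6 h and 653, 1039 and 763 CPM at 24 h. No stimulated library overlapped those of 0 h. In WT cells every mouse was higher at 6 h than at 3 h, whereas every Aim2-/- mouse was highest at 3 h. The step from 3 to 6 h was called in neither genotype. In edgeR it was 0.31 ± 0.20 in WT (adjusted p = 0.28) and -0.13 ± 0.20 in Aim2-/- cells (adjusted p = 0.69). The log2 fold change in WT cells was 2.31 ± 0.21, 2.61 ± 0.21 and 2.12 ± 0.21 at 3, 6 and 24 h, and in Aim2-/- cells 2.13 ± 0.21, 2.00 ± 0.21 and 1.89 ± 0.20 (adjusted p from 2.2e-09 to 2.1e-07). From 6 to 24 h Irf4 fell by 0.50 ± 0.20 on the log2 scale in WT cells (adjusted p = 0.037), and the change in Aim2-/- cells was -0.11 ± 0.20 (adjusted p = 0.66). The WT call was lost without any one of the 3 WT mice, with adjusted p between 0.083 and 0.12.

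Irf1 (ENSMUSG00000018899; chromosome 11, 53770014 to 53778374, plus strand) peaked at 3 h in all 6 mice. WT mice 1, 3 and 4 went from 409, 450.1 and 487 CPM at 0 h to 1318, 1627 and 1759 CPM at 3 h, and then to 729.7, 924 and 1133 CPM at 6 h and 416, 472 and 516 CPM at 24 h. Aim2-/- mice 1, 2 and 4 went from 458, 497 and 532 CPM to 915, 1199 and 1238 CPM, 768, 858 and 845 CPM, and 453, 434 and 478 CPM. The 3 h libraries of the genotypes did not overlap, and at the other times they did. The genotype difference at 3 h was not called in edgeR (adjusted p = 0.14). The log2 fold change at 3 h was 1.81 ± 0.15 in WT (3.50-fold, adjusted p = 1.3e-08) and 1.17 ± 0.14 in Aim2-/- cells (2.25-fold, adjusted p = 3.9e-06). At 6 h it was 1.05 ± 0.14 and 0.73 ± 0.14, both called. At 24 h it was 0.06 ± 0.14 (95% interval -0.24 to 0.36) and -0.12 ± 0.14 (-0.42 to 0.17), and neither was called. Irf1 exons overlap those of Gm17334 on the opposite strand, whose level stayed under 1 CPM in every library.

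The promoter of Irf1 is shown because it too was among the windows with a match. It holds a GAS element 90 to 82 bases before the outer of 2 RefSeq starts and a kappa B element, the site of NF-kB dimers, 13 to 4 bases before it, both in capitals and not overlapping. The sequence is GRCm38.p6, chr11:53769764-53770013, plus strand.
Irf1: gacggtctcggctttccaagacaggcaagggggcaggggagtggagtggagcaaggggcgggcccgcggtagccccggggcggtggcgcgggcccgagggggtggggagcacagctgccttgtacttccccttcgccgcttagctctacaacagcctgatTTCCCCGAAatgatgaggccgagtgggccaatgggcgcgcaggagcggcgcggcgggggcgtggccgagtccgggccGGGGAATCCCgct

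Irf2 (ENSMUSG00000031627; chromosome 8, 46739732 to 46847458, plus strand), the repressing counterpart of IRF1, moved by less. WT mice 1, 3 and 4 held 141, 131 and 130.0 CPM at 0 h, 157, 159 and 194 CPM at 6 h and 82.6, 89.3 and 95.5 CPM at 24 h, and Aim2-/- mice 1, 2 and 4 held 120.1, 141 and 126 CPM, 162, 178 and 150.4 CPM, and 81.9, 87.6 and 85.8 CPM. It was highest at 6 h and lowest at 24 h in 6 of 6 mice. At 3 h the log2 fold change was 0.16 ± 0.09 in both genotypes, and neither was called. At 6 h it was 0.34 ± 0.09 in both (adjusted p = 0.0040 in each), and at 24 h Irf2 fell by 0.59 ± 0.09 in WT and by 0.60 ± 0.09 in Aim2-/- cells (adjusted p = 8.7e-06 and 7.9e-06). The WT call at 6 h was lost without the mouse labelled WT 4 (log2 fold change 0.19, adjusted p = 0.20).

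The Irf2 promoter held 3 of the elements sought. They were an interferon-stimulated response element (ISRE, GAAANNGAAA) at 241 to 232 bases before the start, a GAS element at 224 to 216 and a kappa B element at 17 to 8, none overlapping another (GRCm38.p6, chr8:46739495-46739744, plus strand).
Irf2: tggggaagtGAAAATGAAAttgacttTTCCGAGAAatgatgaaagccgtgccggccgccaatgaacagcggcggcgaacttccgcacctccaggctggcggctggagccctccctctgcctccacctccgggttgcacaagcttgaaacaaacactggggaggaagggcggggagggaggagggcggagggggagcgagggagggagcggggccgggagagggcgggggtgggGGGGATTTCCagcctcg
ISRE, GAS, kappa B and AP-1 (TGANTCA) elements were sought on both strands in the 250 bases before 11 RefSeq starts of the 8 members. Matches were found at 3 of the 11 starts, the ones printed. Of 32851 such windows of all genes, 2.98% held the ISRE, 7.02% the GAS, 7.25% the kappa B and 6.75% the AP-1 element, and no window of a member held the last. A match describes letters only, and binding was not measured.

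Among the members that are activated as proteins, Irf7 (ENSMUSG00000025498; chromosome 7, 141262706 to 141266481, minus strand) had the largest swing. IRF7 is the amplifier of the type I interferon response. In WT mice 1, 3 and 4 it lay at 72.6, 71.7 and 98.8 CPM at 0 h, 181, 202 and 338 CPM at 3 h, 119, 155 and 239 CPM at 6 h and 20.4, 19.6 and 40.1 CPM at 24 h. In Aim2-/- mice 1, 2 and 4 it lay at 88.2, 87.3 and 92.3 CPM, 125, 202 and 167 CPM, 121, 149.6 and 151 CPM, and 32.0, 29.6 and 35.7 CPM. The mouse labelled WT 4 was the highest of the WT mice at every time. The log2 fold change in WT cells was 1.57 ± 0.27 at 3 h and 1.08 ± 0.27 at 6 h, and Irf7 fell by 1.60 ± 0.28 at 24 h (adjusted p = 1.4e-04, 0.0022 and 3.3e-05). In Aim2-/- cells it was 0.88 ± 0.27 and 0.65 ± 0.27, and Irf7 fell by 1.46 ± 0.28 at 24 h (adjusted p = 0.017, 0.049 and 9.3e-05). The Aim2-/- calls at 3 and 6 h were the weakest of these. That at 3 h was lost without mouse Aim2-/- 2 (adjusted p = 0.18) or Aim2-/- 4 (0.11), and that at 6 h without any one of the 3 Aim2-/- mice (0.091 to 0.19), with RLE size factors (0.076), with B cell and myeloid marker scores as terms (0.12) and in DESeq2 (0.058). Between 6 and 24 h Irf7 fell by 2.68 ± 0.29 in WT and by 2.11 ± 0.28 in Aim2-/- cells. Its exons overlap those of Phrf1 on the opposite strand, which lay between 189 and 266 CPM.

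Irf9 (ENSMUSG00000002325; chromosome 14, 55603571 to 55610030, plus strand), the DNA-binding part of ISGF3, was likewise highest at 3 h and lowest at 24 h. WT mice 1, 3 and 4 held 166, 153 and 190.4 CPM at 0 h, 216, 247 and 289 CPM at 3 h, 152, 168 and 203 CPM at 6 h and 68.5, 61.9 and 82.1 CPM at 24 h. Aim2-/- mice 1, 2 and 4 held 148, 172 and 171 CPM, 176, 213 and 196 CPM, 151, 160.4 and 152 CPM, and 81.5, 67.9 and 74.0 CPM. This order held in all 6 mice. The log2 fold change at 3 h was 0.56 ± 0.13 in WT (adjusted p = 0.0016) and 0.25 ± 0.13 in Aim2-/- cells (adjusted p = 0.15, and 0.024 with mouse as a block). At 6 h it was 0.04 ± 0.13 and -0.08 ± 0.13, neither called, where Irf7 was called higher in both genotypes. At 24 h Irf9 fell by 1.26 ± 0.13 in WT and by 1.14 ± 0.13 in Aim2-/- cells (adjusted p = 1.7e-08 and 8.8e-08). Irf9 shares exon sequence with Rnf31 on the same strand, so reads of the 2 genes there cannot be told apart. Rnf31 lay between 162 and 186 CPM at 0 h and between 84.2 and 96.2 CPM at 24 h.

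Irf3 (ENSMUSG00000003184; chromosome 7, 44997648 to 45002848, plus strand), the constitutively made factor that acts first after nucleic acid sensing, was nearly flat. Its 24 libraries lay between 147 and 226 CPM. WT mice 1, 3 and 4 held 149, 183 and 172 CPM at 0 h and 226, 223 and 197 CPM at 3 h, and the rise of 0.36 ± 0.08 on the log2 scale was called (adjusted p = 0.0025). It was lost without the mouse labelled WT 1, in which Irf3 moved most (log2 fold change 0.24, adjusted p = 0.10). The 3 h value in Aim2-/- cells was 0.20 ± 0.08 (adjusted p = 0.088, and 0.040 with mouse as a block). At 6 and 24 h the log2 fold changes against 0 h lay between -0.13 and 0.12 in the genotypes and none was called. Irf3 exons overlap those of Bcl2l12 on the opposite strand, at 12.2 to 33.1 CPM.

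Irf5 (ENSMUSG00000029771; chromosome 6, 29526625 to 29541871, plus strand), known mainly from macrophages, dendritic cells and B cells, was the lowest member per length after stimulation. WT mice 1, 3 and 4 held 19.4, 15.9 and 19.6 CPM at 0 h, 23.0, 13.8 and 15.7 CPM at 3 h, 18.8, 12.0 and 13.2 CPM at 6 h and 10.6, 6.84 and 10.5 CPM at 24 h. Aim2-/- mice 1, 2 and 4 held 54.2, 25.3 and 37.3 CPM, 41.9, 22.9 and 25.9 CPM, 46.2, 25.7 and 25.0 CPM, and 25.9, 10.3 and 13.3 CPM. Mouse Aim2-/- 1 was the highest at every time, and its 24 h level overlapped the 0 h levels of the other Aim2-/- mice. At 24 h Irf5 fell by 0.97 ± 0.35 in WT (adjusted p = 0.017) and by 1.24 ± 0.34 in Aim2-/- cells (adjusted p = 0.0030), and no change at 3 or 6 h was called. With mouse as a block the 6 h value in WT (log2 fold change -0.34, adjusted p = 0.031) and the 3 h value in Aim2-/- cells (-0.35, adjusted p = 0.025) were called too. The WT call at 24 h was lost without WT mouse 3 (adjusted p = 0.061) or 4 (0.054). Irf5 exons overlap those of Tnpo3 on the opposite strand, which lay between 143 and 287 CPM and was higher at 24 h than at 0 h in 6 of 6 mice.

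Markers of myeloid cells moved with Irf5. All 8 had counts in every library of 0, 3 and 6 h and at least 6 of the 8 at 24 h. Their sum in WT libraries was 48.0 to 69.3 CPM at 0 h and 15.3 to 31.9 CPM at 24 h, and in Aim2-/- libraries 134 to 390.3 CPM and 38.0 to 195 CPM. Over the 24 libraries the log2 level of Irf5, taken as the deviation from its group mean, correlated with the summed myeloid markers at r = 0.90 and with the summed conventional dendritic cell markers at r = 0.92. With granulocyte, plasmacytoid dendritic cell, B cell and CD8 T and NK cell markers r was 0.89, 0.855, 0.83 and 0.77, so no one list stood out. These r values are a description of libraries that share mice and groups. Each sum is in CPM, so its highest genes weigh most. In WT cells at 0 h Lyz2 of the myeloid list had a mean of 25.8 CPM and Mpo of the granulocyte list 20.3 CPM. In the conventional dendritic cell list Zbtb46 had 13.8 CPM and Clec9a 0.08 CPM. The other 7 members gave r between -0.64 and -0.15 with the myeloid sum. With B cell and myeloid marker scores as terms of the fit, the 24 h value of Irf5 became 0.24 in WT (adjusted p = 0.46) and -0.24 in Aim2-/- cells (adjusted p = 0.37), so the WT direction reversed. The marker scores themselves fell with time, and the part of other cells in the Irf5 result was not tested.

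**Figure D2:**
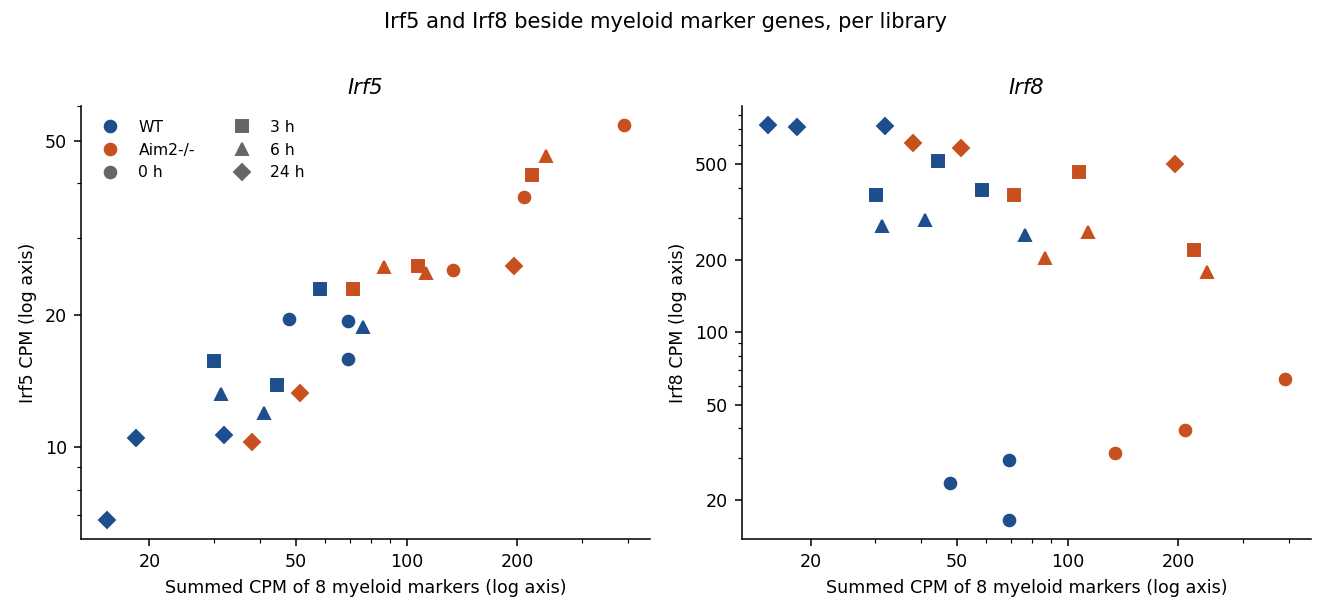
Level of Irf5 (left) and Irf8 (right) in CPM against the summed CPM of 8 myeloid marker genes, both on log axes, 1 point for each of the 24 libraries, with colour for genotype and shape for time. Irf5 climbs with the marker sum across all groups, from 6.84 to 54.2 CPM, whereas the Irf8 libraries of 24 h sit at the top of the panel, from 499.7 to 726 CPM, over marker sums from 15.3 to 195 CPM.

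**Figure D3:**
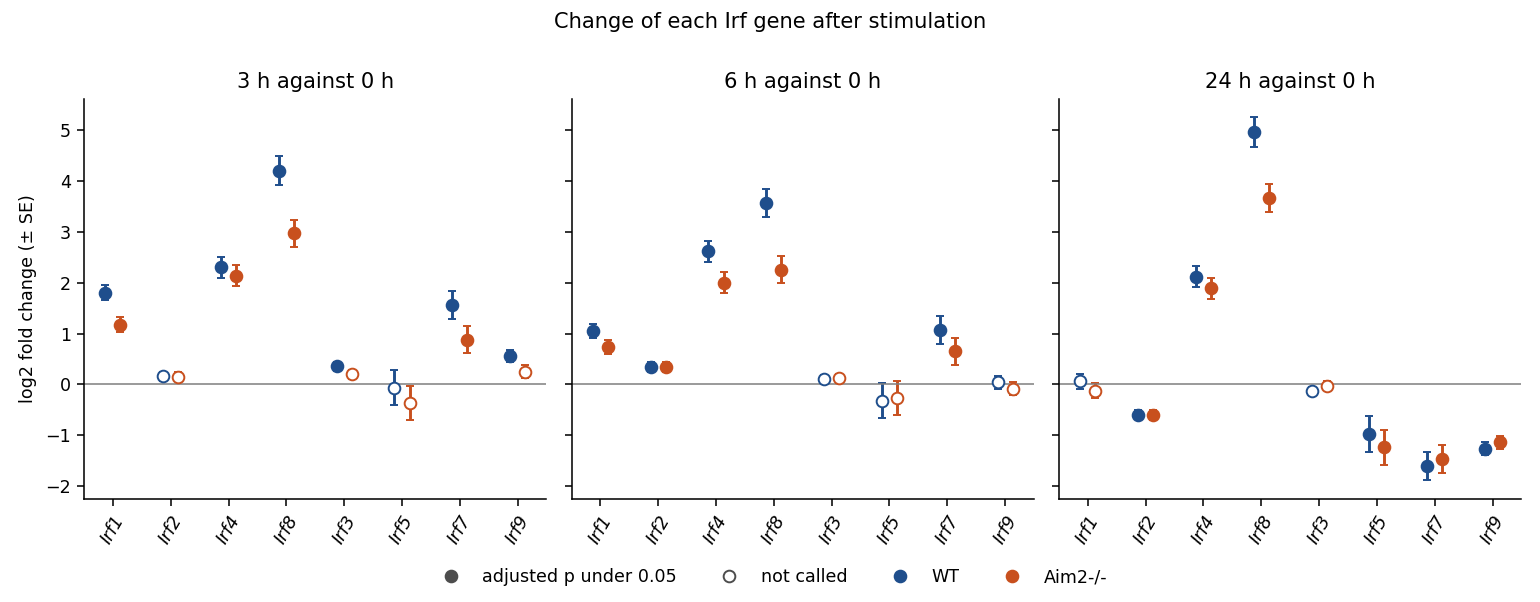
Log2 fold change against 0 h with its SE for each of the 8 Irf genes at 3, 6 and 24 h in WT and Aim2-/- cells, 3 mice each. Filled points passed an adjusted p of 0.05. Irf8 and Irf4 are above 1.5 in every panel, Irf1 is 1.81 and 1.17 at 3 h and near 0 at 24 h, and Irf2, Irf5, Irf7 and Irf9 are below 0 at 24 h.

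The steps between the stimulated times were tested as well. From 3 to 6 h 3 members were called in WT cells, beside 25.7% of all genes, and 2 in Aim2-/- cells, beside 23.3%. Irf1 fell by 0.76 ± 0.14 in WT and by 0.44 ± 0.14 in Aim2-/- cells, Irf9 by 0.52 ± 0.13 and Irf3 by 0.25 ± 0.08 in WT, and Irf8 by 0.72 ± 0.25 in Aim2-/- cells (adjusted p = 0.040). The Irf3 call was lost without any one of the WT mice (adjusted p from 0.13 to 0.25), without the low-count filter (0.24) and with the libraries compared alone (0.071). The Aim2-/- calls were lost without mouse Aim2-/- 2 or 4 and with the libraries compared alone, for Irf1 with adjusted p from 0.095 to 0.20 and for Irf8 from 0.12 to 0.17. In WT cells the Irf8 value was -0.63 ± 0.25 (adjusted p = 0.066, and 0.027 with mouse as a block), close to that in Aim2-/- cells. With mouse as a block 5 members were called in WT cells, beside 5537 of the 15325 genes tested, Irf7 (-0.49, adjusted p = 0.0024) being the other one added. Irf9 was added in Aim2-/- cells (-0.33, adjusted p = 0.0045), where 5438 of all genes were called. From 6 to 24 h 7 members were called in WT, beside 57.6% of all genes, and 6 in Aim2-/- cells, beside 54.3%. Irf8 alone rose over this step, by 1.39 ± 0.25 in WT and by 1.40 ± 0.25 in Aim2-/- cells (adjusted p = 7.6e-05 and 8.6e-05), while Irf7, Irf9, Irf1 and Irf2 fell in both genotypes. Irf5 was called over this step in Aim2-/- cells (-0.97 ± 0.34, adjusted p = 0.021), but not without mouse Aim2-/- 2 (0.063) or 4 (0.079), and with the marker scores as terms the value was -0.44 (0.0497). In WT cells it was not (-0.66 ± 0.35, adjusted p = 0.11), but was with mouse as a block (-0.65, adjusted p = 2.7e-04).

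Scaled by the length of all annotated exons of a gene joined (CPM per kb), the make-up of the family changed with time. This length is not that of the transcripts in use, and for Irf7 it was 3776 bases, the whole span of the gene. The order of the members and their shares depend on it. At 0 h Irf1 led in WT cells with 113 ± 9.91 CPM per kb (SD, n = 3), which was 38.4% of the family's sum, and it did not overlap with Irf4 at 51.2 ± 13.5 and Irf3 at 48.8 ± 5.17, which overlapped each other. Irf9 followed at 31.5 ± 3.51, Irf7 at 21.5 ± 4.08 and Irf2 at 18.1 ± 0.85, the last pair overlapping. Irf5 at 6.30 ± 0.73 and Irf8 at 3.30 ± 0.91 came last, the latter with 1.13% of the sum. At 24 h Irf4 led with 222 ± 14.6 CPM per kb (42.5%), then Irf1 with 118 ± 12.5 (22.5%) and Irf8 with 102 ± 1.04 (19.6%), none overlapping its neighbour. Irf3 was next at 44.6 ± 1.41 CPM per kb. The other 4 members were at or below 13.1 CPM per kb. In Aim2-/- cells Irf8 likewise went from the last place at 0 h, with 2.08% of the sum and overlapping Irf5, to the third at 24 h, with 17.9%. The lead passed from Irf1 to Irf4 at 6 h in WT cells, where their libraries did not overlap. In Aim2-/- cells Irf1 was still above Irf4 at 6 h, with overlapping libraries, and Irf4 led at 24 h. The summed family level in WT cells was 294 ± 19.0, 907 ± 109.9, 745 ± 74.0 and 522 ± 28.2 CPM per kb at 0, 3, 6 and 24 h, and in Aim2-/- cells 308 ± 5.83, 691 ± 117, 568 ± 56.1 and 447 ± 43.3.

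**Figure D4:**
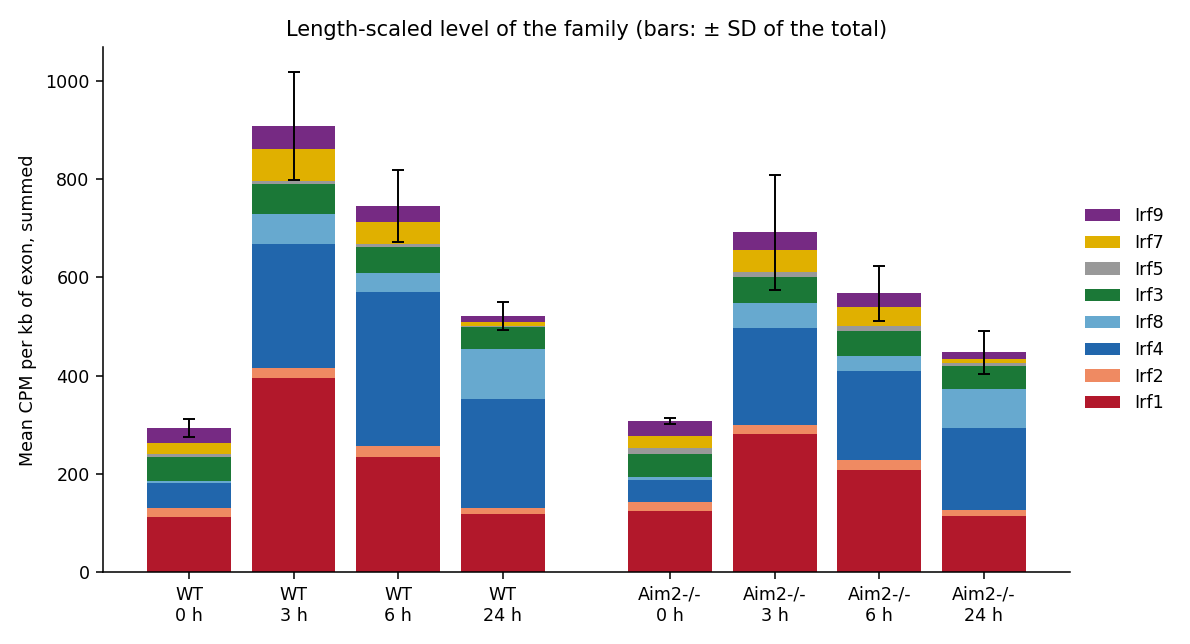
Mean CPM per kb of exon (all annotated exons of a gene joined) of the 8 Irf genes, stacked, in WT and Aim2-/- cells at 0, 3, 6 and 24 h (3 mice a bar), with the SD of the summed level as a black bar. The sum is highest at 3 h, 907 in WT and 691 in Aim2-/- cells, and the share of Irf8 goes from 1.13% at 0 h to 19.6% at 24 h in WT cells.

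The genes whose log2 CPM over the 24 libraries was most like that of each member were found among 8673 genes. These values describe likeness over libraries that share mice and times. For Irf1 they were Tap1 (r = 0.97), Tgtp2 and Gbp7 (both 0.96), for Irf4 Hivep3 (0.97), Lcp2 (0.97) and Lcp1 (0.96), and for Irf8 Tbkbp1 (0.98), Tbx21 (0.97), which encodes the T helper 1 regulator T-bet, and Btbd19 (0.95). Irf7 was most like Itgb3 (0.98), Parp10 and Fas (both 0.97), Irf9 like Gimap8 (0.985) and Gimap4 (0.98), Irf2 like Cd53 (0.95), and Irf5 like Pglyrp1 and S100a6 (both 0.96). Irf3 had the least like partners, with Atp13a1 at 0.85. Within the family the most like pairs were Irf7 and Irf9 (0.95), Irf2 and Irf7 (0.91), Irf2 and Irf9 (0.87) and Irf4 and Irf8 (0.86).

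The rest of the pathway was read from lists written from general knowledge, but with earlier results of these data known. Their counts beside all genes are thus a description only. Fold changes in these lists are log2 values against 0 h. Of all genes tested, 16.2% were called higher and 16.4% lower in WT cells at 3 h, 26.4% and 24.8% at 6 h and 36.6% and 34.8% at 24 h. The shares in Aim2-/- cells were 16.1% and 14.6%, 28.5% and 22.7%, and 36.8% and 33.5%. Of 4 interferon genes, 1 (Ifng, encoding interferon-gamma) was tested, and it rose by 24 h. Its mean in WT cells was 13.9 CPM at 0 h and 95.7 CPM at 24 h (log2 fold change 2.78, adjusted p = 1.8e-05). For Aim2-/- cells the means were 26.8 and 317 CPM (3.56, adjusted p = 7.6e-07). Of 7 interferon receptor and JAK kinase genes, 6 fell and 0 rose in WT cells at 24 h, beside 34.8% of all genes lower, and 7 fell in Aim2-/- cells, beside 33.5%. Ifngr1, a chain of the interferon-gamma receptor, fell by 3.74 in WT and by 3.30 in Aim2-/- cells on the log2 scale. Ifnar1, of the type I receptor, had log2 fold changes of -2.39 and -2.26. The list's median was -2.04 and -1.96, beside a median of -0.01 and 0.03 over all genes tested.

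Stat2, which encodes a partner of IRF9 in ISGF3, rose at 3 h, by 1.79 in WT and by 1.30 in Aim2-/- cells, both called. By 24 h it was lower in WT cells (-0.66, adjusted p = 0.0036). Of 14 ISGF3 target genes, 10 rose and 0 fell at 3 h in each genotype, beside 16.2% and 16.1% of all genes higher, with a median of 1.35 in WT and 1.18 in Aim2-/- cells. At 24 h 3 rose and 6 fell in WT cells, beside 36.6% and 34.8% of all genes, with a median of -0.13. Ifit3 (1.85), an inhibitor of viral replication, and Bst2 (1.98), which tethers virions, were among those that rose in WT cells at 24 h. Isg15, a ubiquitin-like modifier, fell by 1.57 and the chemokine gene Cxcl10 by 1.67.

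Of 9 genes of antigen processing, GBPs and signalling that IRF1 is known to drive, all 9 rose in WT cells at 3 h and at 6 h, beside 16.2% and 26.4% of all genes higher, with medians of 1.61 and 2.14. The Aim2-/- cells showed 8 risen at 3 h and at 6 h, beside 16.1% and 28.5%, with medians of 1.58 and 1.19. At 24 h, when Irf1 was not called, 7 of the 9 were higher and 1 lower in WT cells, beside 36.6% and 34.8% of all genes. In Aim2-/- cells 6 were higher and 1 lower, beside 36.8% and 33.5%. Il12rb1, a chain of the IL-12 receptor, went from 8.17 to 346 CPM in WT cells by 24 h (log2 fold change 5.40, adjusted p = 2.6e-12). Gbp2 (3.16), a GTPase of host defence, and Socs1 (3.09), a brake on JAK signalling, rose by 24 h too.

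Of the 10 DNA-binding partners of IRF4 and IRF8, 3 rose and 6 fell at 24 h in each genotype, beside 36.6% higher and 34.8% lower of all genes in WT and 36.8% and 33.5% in Aim2-/- cells. The 9 of 10 called stand beside 71.4% and 70.3% of all genes. Batf, the AP-1 factor that pairs with IRF4 in T cells, rose by 1.37 in WT and 1.14 in Aim2-/- cells at 24 h, while Junb fell by 1.68 and 2.14 and Ets1 by 2.17 and 2.05. Of the 8 T helper genes that IRF4 is known to act on, 1 rose and 1 fell in WT cells at 3 h, beside 16.2% and 16.4% of all genes, so the list was close to the background there. At 24 h 2 rose and 6 fell, beside 36.6% and 34.8%. Il4 rose by 4.72 at 6 h in WT cells (from 4.21 to 111 CPM, means) and stood at 14.0 CPM at 24 h. Bcl6, the regulator of follicular helper cells, fell by 3.25 and Ctla4, an inhibitory receptor, by 2.00 at 24 h. Of the 15 sensors and kinases upstream of IRF3, IRF5 and IRF7, 5 rose and 4 fell in WT cells at 24 h, beside 36.6% and 34.8% of all genes, which is near the background. Tmem173, encoding STING, rose by 1.26, while Ddx58, encoding RIG-I, fell by 2.55 and Ikbke, an IRF3 kinase, by 1.86. Of 3 IRF2-binding proteins 2 fell at each time in both genotypes, beside 14.6% to 34.8% of all genes lower, Irf2bpl by 1.70 and Irf2bp2 by 1.56 in WT cells at 24 h.

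Fewer members were called between genotypes than after stimulation. Of the 8 members, 1 was called at 0 h, beside 5.23% of all genes, 0 at 3 h, beside 0.294%, 2 at 6 h, beside 15.8%, and 0 at 24 h, beside 0.666%. At 3 h 4 members had an unadjusted p under 0.05 in edgeR, beside 2350 of the 15325 genes tested. DESeq2 called 1 member there, beside 307 of all genes, and limma-voom 0, beside 63. At 24 h 1 member had an unadjusted p under 0.05, beside 3134 of all genes. DESeq2 called 0 members there, beside 787 of all genes, and limma-voom 0, beside 5. The tests compare different mice, and B cell, myeloid and granulocyte markers were higher in the Aim2-/- libraries, as given above for the former pair. Granulocyte markers summed to 23.7 to 27.0 CPM in WT and 101 to 249 CPM in Aim2-/- libraries at 0 h, and erythroid markers to 6.14 to 53.6 CPM and 15.9 to 255 CPM.

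Irf8 was the member called at 0 h. Its 3 Aim2-/- libraries (64.0, 31.5 and 39.2 CPM) lay above the 3 of WT (16.7, 29.5 and 23.6 CPM), the nearest pair being 29.5 and 31.5 CPM, and the log2 difference was 0.95 ± 0.26 (1.93-fold, adjusted p = 0.040). Without the mouse labelled WT 1, the lowest, it was 0.76 (adjusted p = 0.14), and without mouse Aim2-/- 1, the highest, it was 0.61 (adjusted p = 0.16). The call was also lost without Aim2-/- 4 (adjusted p = 0.073), WT 3 (0.12) or WT 4 (0.16), in the fit of the 0 h libraries alone (0.091), in limma-voom without a block (0.93, adjusted p = 0.060) and with mouse as a random block (0.93, adjusted p = 0.069) and with the marker scores as terms (1.04, adjusted p = 0.11). At 0 h 9 B cell markers summed to 10.4 to 13.4 CPM in WT and 21.6 to 51.5 CPM in Aim2-/- libraries, and at least 8 of the 9 had counts in every library. IRF8 is made by B cells and myeloid cells, and their part in the 0 h difference was not tested beyond the fit with marker scores.

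At 6 h Irf4 was lower and Irf5 higher in Aim2-/- cells. For Irf4 the Aim2-/- libraries (672, 1032 and 945 CPM) lay below those of WT (1516, 1599 and 1496 CPM) by 0.80 ± 0.20 on the log2 scale, a 1.74-fold difference (adjusted p = 0.016). Without the mouse labelled WT 1 the value was -0.81 (adjusted p = 0.027), and with mouse as a random block -0.82 (adjusted p = 0.0090). The call was lost without Aim2-/- 1 (-0.63, adjusted p = 0.070), Aim2-/- 4, WT 3 or WT 4 (adjusted p from 0.060 to 0.070) and with the marker scores as terms (-0.48, adjusted p = 0.17). At 3 and 24 h the Irf4 values had the same sign, -0.36 ± 0.20 and -0.41 ± 0.20, and were not called, and at 0 h it was -0.19 ± 0.20.

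For Irf5 the Aim2-/- libraries at 6 h (46.2, 25.7 and 25.0 CPM) lay above those of WT (18.8, 12.0 and 13.2 CPM) by 1.14 ± 0.34 on the log2 scale (2.20-fold, adjusted p = 0.033). Without the mouse labelled WT 1 it was 1.35 (adjusted p = 0.041). Without Aim2-/- 1 it was 0.79 (adjusted p = 0.083), and it was not called without Aim2-/- 4, WT 3 or WT 4 (adjusted p from 0.069 to 0.15). At 0 h the difference was 1.09 ± 0.34 (adjusted p = 0.063), called with mouse as a random block (1.03, adjusted p = 0.016) and in DESeq2 (1.07, adjusted p = 0.020). At 3 and 24 h it was 0.79 ± 0.34 and 0.82 ± 0.35. At 6 h the 8 myeloid markers summed to 31.3 to 76.4 CPM in WT and 86.7 to 239 CPM in Aim2-/- libraries, and with the marker scores as terms the Irf5 difference was 0.36 (adjusted p = 0.37).

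**Figure D5:**
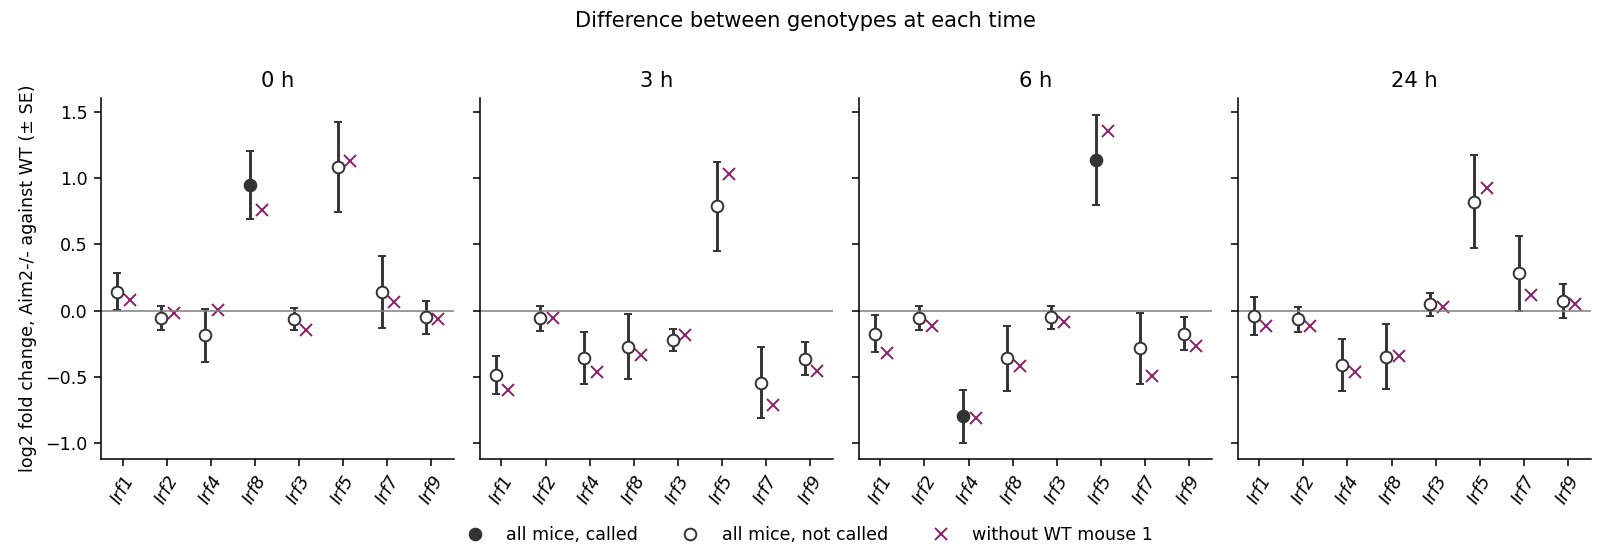
Log2 fold change of Aim2-/- against WT cells with its SE for each Irf gene at 0, 3, 6 and 24 h, 3 mice a genotype. Filled circles passed an adjusted p of 0.05 (Irf8 at 0 h, Irf4 and Irf5 at 6 h), and crosses give the value without the mouse labelled WT 1. Irf5 is above 0 at every time, from 0.79 to 1.14, and Irf2 stays within 0.07 of 0.

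Of the remaining members none was called between genotypes. The Irf1 difference at 3 h was -0.49 ± 0.14 with no overlap of the libraries (unadjusted p = 0.0026 in the edgeR fit, adjusted p = 0.14), and it was called without the mouse labelled WT 1 (-0.60, adjusted p = 0.018), with mouse as a random block (-0.49, adjusted p = 0.043) and in DESeq2 (-0.50, adjusted p = 0.038). Irf9 and Irf3 at 3 h gave -0.36 ± 0.13 (adjusted p = 0.20) and -0.22 ± 0.08 (adjusted p = 0.23), also without overlap. How many of all genes were without overlap at 3 h was not counted, so no difference is drawn from it. In edgeR 2350 of the 15325 genes tested had an unadjusted p under 0.05 at that time. Irf7 at 3 h gave -0.55 ± 0.27 (adjusted p = 0.34), with overlap. For Irf2 the 95% intervals of the difference lay between -0.26 and 0.14 at the 4 times, and Irf2 was called at none of them.

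Whether the response itself differed between the genotypes was asked with the interaction of genotype and time. None of the 8 members was called in edgeR at 3 h, where 0% of all genes was called, at 6 h, beside 0.0261%, or at 24 h, beside 0%. At an unadjusted p under 0.05 it was 2, 2 and 1 members and 653, 2019 and 1825 of all genes. DESeq2 called 0, 1 and 1 members, beside 0, 304 and 185 of all genes. With limma-voom it was 0 members at each time, beside 0, 2 and 2 of all genes. The member called by DESeq2 was Irf8. Its fitted rise was smaller in Aim2-/- than in WT cells, and the log2 difference was -1.22 ± 0.36 at 3 h, -1.31 ± 0.36 at 6 h and -1.30 ± 0.36 for 24 h. The edgeR fit gave unadjusted p = 0.0026, 0.0015 and 0.0016 and adjusted p = 0.95, 0.11 and 0.15. In each of the 3 WT mice the ratio to the 0 h level at 24 h was 24.6-fold to 43.5-fold, and in each of the 3 Aim2-/- mice 7.81-fold to 19.4-fold.

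Each mouse gave cells at all 4 times, so these contrasts are within mice, a pairing that the fits above left out. With mouse as a block the Irf8 difference was -1.28 at 3 h (adjusted p = 0.19), -1.36 at 6 h (0.020) and -1.34 at 24 h (0.026). The Irf1 difference at 3 h, -0.63 ± 0.20 without the block (adjusted p = 0.98), had an adjusted p of 0.0498. The block raised the calls over all genes from 0 to 9 at 3 h, from 4 to 717 at 6 h and from 0 to 424 at 24 h. Without the mouse labelled WT 1 the Irf8 differences were -1.09, -1.18 and -1.10, and without Aim2-/- 1 they were -0.63, -0.85 and -0.87. The 0 h libraries enter all 3 contrasts, and Irf8 was called higher in Aim2-/- cells there, whereas at 3, 6 and 24 h the genotypes differed by -0.27 ± 0.25, -0.36 ± 0.25 and -0.35 ± 0.25 with none called. At 24 h the 3 Aim2-/- libraries (499.7, 612 and 587 CPM) lay below the 3 of WT (724, 726 and 712 CPM), with an adjusted p of 0.44 in edgeR. How many of all genes were separated in this way was not counted, so no difference is drawn from it.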

How the data were processed

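RNA-seq libraries of splenic CD4+ T cells of 6 mice (stranded mRNA kit) were used as the raw read counts per Ensembl gene that the authors deposited. Per the study's methods and the submitters' processing notes, the authors aligned reads with STAR to GRCm38 and counted them per gene; versions and the strand setting of the counting are not given in the sources used here, so opposite-strand neighbours are given beside the members. The members and gene lists were chosen with earlier results of these data known, and an item of these lists is not reported here.

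Genes were filtered with filterByExpr (minimum count 10), which left 15325, and fitted in edgeR 4.0.16 (R 4.3.3) with TMM scaling, 8 group means over 24 libraries and the quasi-likelihood F test, Benjamini-Hochberg adjusted over all genes in each of 17 comparisons. The script was tested on simulated data for WT at 3 h against 0 h (14782 to 14812 genes tested), where 38.2%, 54.1% and 83.4% of genes changed 1.5-fold, 2-fold and 4-fold were recovered. The recovery asked for at 4-fold was lowered after this value was seen, and genes not called may thus have changed. All 8 members are named, with Aim2 as the check of the labels. Of each list up to 4 genes are named, those with the largest change at 24 h in WT among genes called there with a mean of at least 10 CPM, and for each member up to 3 genes by Pearson r. Alternatives were DESeq2 1.42.0, limma-voom (limma 3.58.1), other scalings, no filter, the compared libraries alone, marker scores, each mouse left out and mouse as a block. Each mouse gave a library at every time. Deviations from the group means correlated at 0.139 to 0.567 between libraries of a mouse (36 pairs). Between mice of a genotype they correlated at -0.432 to 0.0742 (72 pairs), and since deviations in a group cancel, lower values are built in there. Mouse numbers were used to pair libraries within a genotype only, and pairs across genotypes were not examined. Replicates are separate mice. Promoter sequences are RefSeq's (GRCm38.p6).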

Additional observations from a re-analysis of the deposited data

How the results depend on the processing

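Of 136 values (8 members in 17 comparisons), 61 were called in no fit. Of these, 26 changed sign under some alternative, the largest being 0.28 on the log2 scale, and they are not followed further, a limit set after seeing the values. The other 75 gave 861 alternative values, of which 761 kept direction and call, 50 lost the call, 44 gained it and 6 reversed. All 6 reversals came with B cell and myeloid marker scores as terms. They were Irf5 in WT at 6 h (0.0786), in WT at 24 h (0.24), in Aim2-/- cells at 3 h (0.0905), in WT from 6 to 24 h (0.16) and between genotypes at 24 h (-0.25), and Irf4 between genotypes at 24 h (0.02). The cause was not tested.

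With mouse as a block the number of members called went from 4 to 7 in Aim2-/- cells at 3 h, while calls over all genes went from 4698 to 6307. In WT cells from 3 to 6 h it went from 3 to 5, while calls over all genes went from 3945 to 5537. For the genotype difference in the response it went from 0 to 1 at each of 3, 6 and 24 h. The calls over all genes there were 9, 717 and 424 with the block. With mouse as a random block 1 member was called between genotypes at 3 h, beside 211 of all genes. Library totals alone gave 7 in Aim2-/- cells at 3 h, beside 4984 of all genes, where this scaling shifted the median of all genes by 0.12. The libraries compared alone gave 0 in Aim2-/- cells from 3 to 6 h, beside 1080 of all genes, and 0 between genotypes at 0 h, beside 317. Marker scores gave 0 between genotypes at 0 h and at 6 h, beside 159 and 134 of all genes, and limma-voom 0 at 0 h, beside 802. Without the filter the counts between genotypes were 2, 2 and 1 at 0, 3 and 24 h, beside 1499, 775 and 962 of all genes. For the difference in each response the count was 1, beside 6, 147 and 155 of all genes at 3, 6 and 24 h. DESeq2 gave 2 and 1 between genotypes at 0 and 3 h, beside 1557 and 307 of all genes. It gave 1 for the difference in the 6 h and 24 h responses, beside 304 and 185.

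With each mouse left out, the members called ranged from 5 to 6, 4 to 5 and 5 to 6 in WT cells at 3, 6 and 24 h, and from 3 to 4, 4 to 4 and 6 to 6 in Aim2-/- cells. Calls over all genes ranged from 2936 to 3514, 6132 to 6840 and 9832 to 10036 in WT cells. In Aim2-/- cells the ranges were 2803 to 4058, 6310 to 7072 and 9673 to 10153. From 3 to 6 h 2 members were called in WT cells, beside 1538 to 2916 of all genes, and 0 to 2 in Aim2-/- cells, beside 2171 to 2576. From 6 to 24 h 5 to 6 members were called in each, beside 7091 to 7441 of all genes in WT and 6905 to 7481 in Aim2-/- cells. Between genotypes 0 to 2, 0 to 1, 0 to 2 and 0 to 2 members were called at 0, 3, 6 and 24 h. Calls over all genes there ranged from 30 to 2139, 1 to 1143, 95 to 4020 and 0 to 2702. For the differences in response 0 members were called, beside 0 of all genes at 3 h, 0 to 58 at 6 h and 0 to 201 at 24 h. Each call between genotypes in the fit of all mice was lost without some single mouse. With 3 mice a genotype, such a loss cannot be told apart from the effect of having fewer mice.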
